A study of Mus musculus with 48 samples.

Results

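The growth hormone (GH) and insulin-like growth factor (IGF) axis of the liver is described here through 10 transcripts, out of 29331 genes in the count table, found by their symbols: the GH receptor Ghr, the transcription factor Stat5b, the secreted products Igf1 and Igfals, the binding proteins Igfbp1 and Igfbp2, the feedback inhibitors Socs2, Cish and Socs3, and the repressor Bcl6. All 10 were found, and all 10 passed the filter on low counts. Poly(A) RNA was sequenced from livers of male wild-type mice in 48 libraries, 3 in each of 16 groups. LPS mice received lipopolysaccharide, a molecule of the outer membrane of Gram-negative bacteria that activates innate immunity, without interruption for 7 days, and NC mice were the negative controls. On day 7 both arms were sampled at Zeitgeber time (ZT, hours after lights on) 1, 5, 9, 13, 17 and 21. The LPS arm alone was also sampled on days 3, 5, 9 and 11, always at ZT21. These days are counted in the labels after LPS without naming the first day. If they are counted from the start of LPS, days 9 and 11 fall after the 7 days of LPS. Groups of all these days are called LPS here. NC livers were of day 7 only. For the dose and route of LPS, the age and strain of the mice and what NC mice received, the sources used here give nothing.

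GH from the pituitary binds GHR on hepatocytes and activates the kinase JAK2, which phosphorylates STAT5B. STAT5B then enters the nucleus and induces Igf1, Igfals, Socs2 and Cish, and the products of Socs2 and Cish dampen the receptor in turn. In male rodents GH is secreted in pulses, hepatic STAT5 activity follows the pulses, and BCL6, a repressor that can occupy STAT5 sites, is itself lowered by STAT5. Circulating IGF1 is held in a complex with IGFALS and IGFBP3, while IGFBP1, raised by fasting and lowered by insulin, and IGFBP2 bind IGF1 outside that complex. SOCS3 is induced by STAT3 after interleukin-6 and other cytokines and also restrains GH signalling.

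The promoters of Cish, Bcl6 and Igfbp1 are shown because these transcripts covered wide ranges of level, and because the first 2 hold repeated matches to the STAT5 motif TTCNNNGAA. Each stretch runs from 250 bases before to 50 bases after a RefSeq transcription start on GRCm38.p6, 5′ to 3′ on the gene's strand, with motif matches in capitals. RefSeq entries matched 9 of the 10 transcripts, with 15 promoters, and Socs2 had no entry. Capitals mark TTCNNNGAA in Cish and Bcl6, and the insulin response motif CAAAACA in Igfbp1.
Cish, chr9:107296409-107296708, plus strand: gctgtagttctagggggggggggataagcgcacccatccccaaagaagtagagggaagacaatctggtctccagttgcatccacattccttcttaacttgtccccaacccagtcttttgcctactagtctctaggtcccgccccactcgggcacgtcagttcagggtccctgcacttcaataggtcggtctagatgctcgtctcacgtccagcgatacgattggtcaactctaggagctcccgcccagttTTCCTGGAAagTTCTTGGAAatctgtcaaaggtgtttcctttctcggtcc
Bcl6, second of 2 promoters, chr16:23981234-23981533, minus strand: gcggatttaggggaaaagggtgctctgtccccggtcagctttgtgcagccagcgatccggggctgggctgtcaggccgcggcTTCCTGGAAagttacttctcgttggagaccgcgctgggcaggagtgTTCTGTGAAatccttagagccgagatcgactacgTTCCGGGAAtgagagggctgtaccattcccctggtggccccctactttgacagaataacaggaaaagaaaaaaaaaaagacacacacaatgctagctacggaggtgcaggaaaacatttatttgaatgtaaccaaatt
Igfbp1, chr11:7197537-7197836, plus strand: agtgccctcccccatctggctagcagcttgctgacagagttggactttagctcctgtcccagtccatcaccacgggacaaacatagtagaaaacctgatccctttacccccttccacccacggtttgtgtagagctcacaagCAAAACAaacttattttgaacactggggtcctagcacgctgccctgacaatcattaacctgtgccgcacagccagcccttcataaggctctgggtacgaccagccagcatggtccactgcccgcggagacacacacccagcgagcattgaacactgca
Positions are those of a match's first base, counted from the start site, and motifs were searched on both strands. Cish held TTCCTGGAA at 1 and TTCTTGGAA at 12. The Bcl6 promoter held TTCCTGGAA at -168, TTCTGTGAA at -122 and TTCCGGGAA at -88. Of 32851 promoters of the same length, 2726 held at least 1 such match (8.3%) and 150 held at least 2 (0.457%). Igfbp1 held CAAAACA at -108, a motif present in 6.28% of promoters. STAT5 matches were found in 6 of the 15 promoters, of 4 genes: also the other Bcl6 promoter (-118), Socs3 (-154) and Igfals (-236 and -58, in different promoters). The E-box CACGTG, present in 7.15% of promoters and bound by clock factors, was found in Igfbp2 (-142) and in the other Bcl6 promoter (-60), and no 2 matches overlapped. A match is a string of letters and shows no binding.

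Total counts ran from 28.2 to 45.3 M per library, with a median of 32.9 M. The 8 hepatocyte markers were detected in every library, with a summed level of 96289 to 139619 CPM (counts scaled to the library's size, with TMM normalization), and 7 markers of muscle, fat and pancreas summed to between 0.221 and 38.8 CPM. In a principal component analysis of day 7, the leading component (13.2% of the variance) set 4 LPS libraries apart from the rest: ZT1 replicate 2 (score 101), ZT13 replicate 2 (90.9), ZT21 replicate 3 (90.1) and ZT21 replicate 1 (79.1), with the next library at 51.7. The median chi-square per gene between replicates 1 and 2 was 2.28, 1.73 and 1.43 on days 3, 5 and 9, where 48 pairs of replicates ran from 1.43 through a median of 3.23 to 12.6 (1.94 for NC ZT5 replicates 1 and 2) and counting noise gives 0.455. Replicates are labelled as biological, but whether each is a different mouse is not stated, and p-values here cover only library-to-library spread within groups. In whole liver, fewer cells of a type and less RNA per cell cannot be told apart.

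In NC livers the 10 transcripts differed widely in how much they varied between libraries, with no other genes compared. Divided by exon length, mean levels over the 18 NC libraries were 295 CPM per kb for Igfbp2, between 48.7 and 54.6 for Igf1, Igfbp1, Ghr and Igfals, and between 5.00 and 9.52 for Socs3, Socs2, Bcl6, Cish and Stat5b. The receptor varied least: Ghr (chromosome 15, 3317760 to 3583492) ran from 346 CPM through a median of 471 to 531, with a coefficient of variation (CV) of 9.33%. Igf1 (chromosome 10, 87858265 to 87937042) ran from 368 through 494 to 599.7 CPM, with a CV of 14.6%.
Igfals, Igfbp2 and Stat5b had CVs of 26.3%, 26.8% and 29.5%. The CV was 53.1% for Bcl6, 56.5% for Socs2, 59.9% for Socs3, 73.5% for Cish and 93.5% for Igfbp1. Cish (chromosome 9, 107296026 to 107302784) ran from 4.79 through 58.0 to 128 CPM, a 26.8-fold range, and Igfbp1 (chromosome 11, 7197782 to 7202546) from 12.2 through 60.2 to 308 CPM, a 25.2-fold range. Much of the Cish range lay within groups. At ZT9 the NC libraries held 6.10, 78.3 and 4.79 CPM of Cish, and at ZT13 86.5, 10.4 and 25.9 CPM.
Exons of Cish overlap those of Gm17040 and Gm17041 on the opposite strand over 4.07% and 7.46% of their length, so if reads were counted without regard to strand, reads of these genes cannot be told apart there.

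The first comparison asked what LPS changed on day 7 irrespective of time of day, by averaging the LPS minus NC differences of the 6 ZTs. Of the 10 transcripts, only Socs2, the GH-induced inhibitor whose loss causes overgrowth in mice, passed. Over 18 NC libraries Socs2 (chromosome 10, 95385362 to 95417180) ran from 15.6 through a median of 38.5 to 127 CPM, and over 18 LPS libraries from 9.06 through 25.3 to 79.5 CPM. The arms overlapped widely, and 13 of 18 LPS libraries lay below the NC mean of their ZT. Socs2 fell by 0.79 ± 0.24 on the log2 scale (SE; edgeR's quasi-likelihood test, Benjamini-Hochberg adjusted p = 0.0364), from 49.8 ± 28.2 to 32.2 ± 20.8 CPM (SD, n = 18 each). Over all 16544 genes tested, 9.34% passed, 5.53% higher and 3.81% lower. The median difference was -0.086 over the 10 and 0.010 over all genes.
The Socs2 call rested on single libraries. It held in 18 of 36 fits that each left out 1 library, with adjusted p from 0.0159 to 0.0720. It was lost without NC ZT1 replicate 2 or 3, ZT5 replicate 3, ZT9 replicate 1 or 2, ZT13 replicate 1 or 3, ZT17 replicate 1 or ZT21 replicate 3, and without LPS ZT1 replicate 1, ZT5 replicate 1 or 3, ZT9 replicate 1 or 3, ZT13 replicate 2, ZT17 replicate 1 or ZT21 replicate 1 or 3. Without the 4 libraries that stood apart the difference was -0.65 (adjusted p = 0.216, in a range of 0.0109 to 0.216 over 5 alternatives). All genes called went from 1545 to 521 in that fit.
The other 9 did not pass. In log2, Ghr differed by -0.19 ± 0.10 (adjusted p = 0.230), Igf1 by -0.09 ± 0.07 (0.431), Igfals by -0.15 ± 0.12 (0.467) and Stat5b by 0.04 ± 0.07 (0.793). Cish stood at -0.60 ± 0.45, Igfbp1 at 0.32 ± 0.40, Socs3 at 0.31 ± 0.37, Igfbp2 at 0.09 ± 0.15 and Bcl6 at -0.08 ± 0.31, with adjusted p from 0.419 to 0.906.

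**Figure D1:**
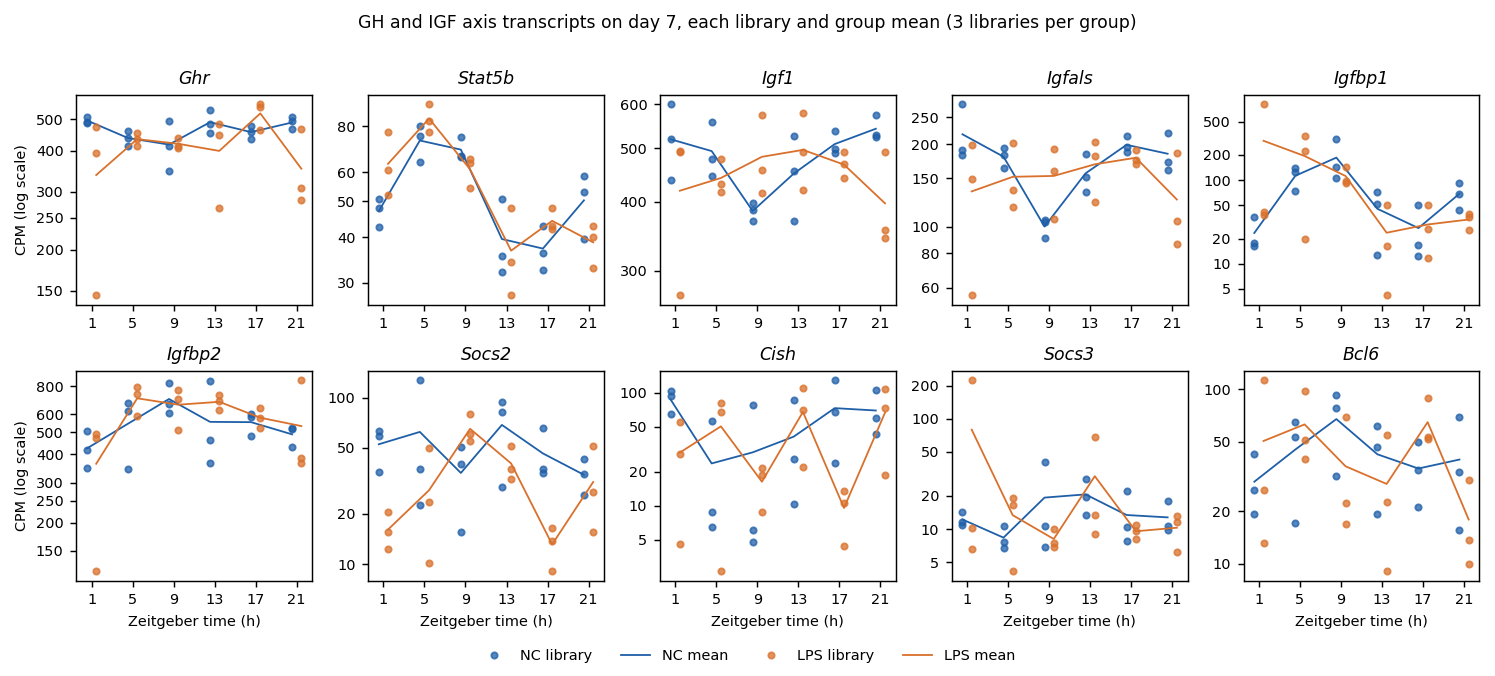
Level of each transcript (CPM, log scale) against Zeitgeber time (h) on day 7, with points for libraries and lines through the means of 3 libraries, NC in blue and LPS in orange. Stat5b peaks near ZT5 in both arms, Igfals is lowest at ZT9 in NC (90.6 to 106 CPM), and LPS ZT1 replicate 2 lies far from its group in Ghr, Igfbp1, Igfbp2 and Socs3.

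The second comparison asked at which ZT the arms differed. None of the 10 passed at any ZT by edgeR's test, whereas 0.357% of all genes passed at ZT1, 0.0121% at ZT5, 0.453% at ZT9, 3.18% at ZT13, 0% at ZT17 and 8.9% at ZT21. At ZT17, 1475 genes had an unadjusted p under 0.05, and DESeq2 called 43. Of the 10 transcripts, an unadjusted p under 0.05 was reached by 6 at ZT1, 2 at ZT17 and 2 at ZT21, and by 0 at the other ZTs. Over all 16544 genes it was reached by 2169 at ZT1, 1279 at ZT5, 1969 at ZT9, 3393 at ZT13, 1475 at ZT17 and 4046 at ZT21. DESeq2 called Igfbp1 at ZT1 (adjusted p = 0.0121, in a range of 0.0121 to 0.862 over 6 alternatives) and none of the 10 elsewhere. Of all genes DESeq2 called 310 at ZT1, 49 at ZT5, 277 at ZT9, 1085 at ZT13, 43 at ZT17 and 1966 at ZT21.
The differences of Socs2 were -1.71 ± 0.59 at ZT1, -1.17 ± 0.58 at ZT5, 0.87 ± 0.57 at ZT9, -0.76 ± 0.57 at ZT13, -1.81 ± 0.60 at ZT17 and -0.14 ± 0.57 at ZT21, so that the estimate was above NC at ZT9 and below it at the other 5 ZTs. At ZT17 the LPS libraries held 9.06, 13.8 and 16.6 CPM of Socs2 and the NC libraries 65.9, 35.2 and 37.4 CPM, without overlap (adjusted p = 0.348). Cish at ZT17 held 4.44, 10.7 and 13.6 CPM in LPS and 128, 66.9 and 24.02 CPM in NC, also without overlap (adjusted p = 0.476).
Bcl6, the repressor, was on the other side of NC there, with 89.1, 53.5 and 51.8 CPM in LPS and 49.6, 34.6 and 21.3 CPM in NC, without overlap (adjusted p = 0.798). How many of all genes are without overlap between groups of 3 libraries was not counted. Here and below, absence of overlap describes the libraries and supports no call. The interaction of treatment with ZT called 282 of all genes by edgeR (1.7%) and 1649 by DESeq2, and none of the 10 by either. By edgeR an unadjusted p under 0.05 was reached by 4 of the 10 and by 3653 of all 16544 genes. The adjusted p of these 4 was 0.177 for Socs2, 0.188 for Stat5b, 0.192 for Igfbp1 and 0.222 for Igf1.

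At ZT1 a single LPS library set several of the differences. LPS ZT1 replicate 2 held 806 CPM of Igfbp1 against 37.8 and 42.1 in its group, and 222 CPM of Socs3 against 10.2 and 6.54. It had the highest level of both among the 48 libraries, of which the other 47 held at most 339 CPM of Igfbp1 and 67.9 CPM of Socs3. It also had the lowest level of Ghr (146 CPM, the others 268 to 554), Igf1 (271, the others 344 to 599.7), Igfals (56.3, the others 86.2 to 279) and Igfbp2 (122, the others 296 to 1036).
Socs2 (15.5 CPM), Cish (28.5), Bcl6 (26.4) and Stat5b (51.9) lay within the range of the other libraries. In the same library the 19 genes of the interleukin-6 and STAT3 list summed to 169762 CPM against 8147 to 22579 in the others, and 11 neutrophil markers to 149.6 CPM against 1.87 to 34.2; the part of both in these levels was not tested. Igfbp1 differed by 3.66 ± 1.08 at ZT1 with all libraries (adjusted p = 0.114) and by 0.77 without that replicate.

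**Figure D2:**
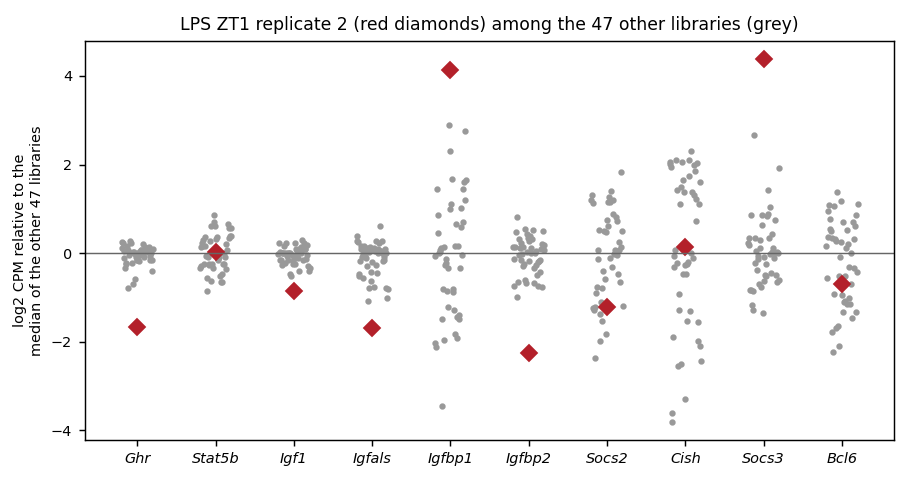
Level of each transcript in LPS ZT1 replicate 2 (red diamonds) and in each of the other 47 libraries (grey points), as log2 CPM relative to the median of those 47. The diamond lies outside the grey points for Ghr, Igf1, Igfals and Igfbp2 (below) and for Igfbp1 and Socs3 (above), and within them for Stat5b, Socs2, Cish and Bcl6.

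The third comparison asked which transcripts followed the time of day, by a 24 h cosine in each arm. Stat5b (chromosome 11, 100780731 to 100850724) was the only one of the 10 that passed in both arms. In NC it held 80.3, 75.3 and 64.1 CPM at ZT5 and 32.5, 36.3 and 42.9 CPM at ZT17, without overlap. Its NC amplitude was 0.45 on the log2 scale with a peak at ZT 5.47 and a 1.86-fold range from trough to peak (adjusted p = 0.00160), and its LPS amplitude 0.53 with a peak at ZT 4.77 and a 2.09-fold range (adjusted p = 0.000262). It passed in both arms in all 36 fits that each left out 1 library and under all 7 alternatives.
A rhythm was called for 22.5% of all genes in NC and 16% in LPS. How many of all genes passed in both arms was not counted. In LPS Igfbp1 passed too, with an amplitude of 1.89, a peak at ZT 3.698 and a 13.8-fold range (adjusted p = 0.00953). Without the 4 libraries that stood apart its adjusted p was 0.0562, in a range of 0.000732 to 0.0562 over 7 alternatives. Its NC amplitude was 0.94 with a peak at ZT 7.25 (adjusted p = 0.163).
Igf1 and Igfals, partners in the circulating complex, did not pass in either arm. In NC both were lowest at ZT9, where Igf1 held 398, 369.6 and 386 CPM and Igfals 106, 90.6 and 104 CPM. At ZT1 NC libraries held 599.7, 437 and 519 CPM of Igf1 and 279, 189.8 and 182 CPM of Igfals, without overlap with ZT9. The fitted NC peaks were at ZT 21.9 for both (adjusted p = 0.0738 and 0.0761), and the LPS peaks at ZT 11.7 and 12.8 (0.240 and 0.512).
A difference in rhythm between the arms was called for 28 of all genes by edgeR (0.169%), 9 by limma-voom and 286 by DESeq2. None of the 10 was called by any of these, and DESeq2 gave Socs3 no adjusted p. An unadjusted p under 0.05 was reached by 2 of the 10 and by 2442 of all 16544 genes. For those 2, edgeR's adjusted p was 0.151 for Igf1 and 0.239 for Igfals. Without the 4 libraries that stood apart, which also share the estimate of spread, both passed in NC, with adjusted p of 0.00957 for Igf1 (0.00957 to 0.272 over 7 alternatives) and 0.00882 for Igfals (0.00882 to 0.115).
None of Ghr, Igfbp2, Socs2, Cish, Socs3 and Bcl6 passed in either arm; adjusted p ran from 0.351 to 0.869 in NC and from 0.122 to 0.982 in LPS. For Cish the NC amplitude was 0.87 and the LPS amplitude 0.13 on the log2 scale. With 1 library left out they ran from 0.73 to 1.42 in NC and from 0.031 to 0.49 in LPS. The difference in its rhythm did not pass by edgeR (adjusted p = 0.810).

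The fourth comparison followed LPS livers at ZT21 over days 3, 5, 7, 9 and 11 against the 3 NC libraries of day 7, which all 5 comparisons share. On day 3 the GH-induced inhibitors were at their lowest. Cish, whose product blocks STAT5 docking at the receptor, held 2.14, 1.85 and 6.98 CPM on day 3 against 43.0, 60.2 and 106 CPM in NC. The groups did not overlap, and 2 of the 3 day-3 libraries lay below all other 46 of the series. Cish fell by 4.25 ± 0.83 on the log2 scale (adjusted p = 0.00334; 3 of 3 libraries), to 3.66 ± 2.88 from 69.6 ± 32.4 CPM (SD, n = 3 each).
Socs2 held 15.1, 14.6 and 6.90 CPM against 34.6, 25.9 and 42.5 CPM in NC, also without overlap. It fell by 1.50 ± 0.43 (adjusted p = 0.0261; 3 of 3 libraries). Both calls were lower ones, of the 10 transcripts, and over all 16101 genes 20.5% passed, 10.3% higher and 10.3% lower. Cish passed in all 18 fits without 1 library, and Socs2 in 14; it was lost without NC replicate 1 or 3 or day-3 replicate 2 or 3, with adjusted p up to 0.0932.
Bcl6 (chromosome 16, 23965052 to 23988852) was high in the same livers, with 83.1, 90.4 and 73.2 CPM against 15.5, 69.4 and 33.7 CPM in NC. The groups did not overlap, but the difference of 1.05 ± 0.60 did not pass (adjusted p = 0.245). Igf1 held 437, 439 and 408 CPM against 574, 524 and 527 CPM, without overlap, and differed by -0.34 ± 0.12 (adjusted p = 0.0584). Igfbp2 (chromosome 1, 72824503 to 72852474) held 638, 818 and 1036 CPM against 516, 432 and 522 CPM, without overlap, and differed by 0.76 ± 0.32 (adjusted p = 0.107).
Ghr, Stat5b, Igfals, Igfbp1 and Socs3 differed by between -0.40 and 0.40 on day 3, with adjusted p from 0.190 to 0.691.

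Other measures moved with the day-3 values. Of 19 core clock genes 12 passed on day 3, 10 lower and 2 higher. Against NC of ZT5, a control chosen with earlier results of these data known, Cish differed by -2.70 (adjusted p = 0.142, in a range of 2.38e-07 to 0.142 over 8 alternatives) and Socs2 by -2.35 (adjusted p = 0.00903, in a range of 0.00541 to 0.0688). NC livers at ZT5 held 8.83, 6.55 and 55.8 CPM of Cish, 2 of the 3 close to the day-3 values. Low Cish was also found at other times: NC libraries of ZT9 ran from 4.79 to 78.3 CPM. LPS libraries of day 7 at ZT17 ran from 4.44 to 13.6 CPM. No 24 h rhythm of Cish was called in NC by edgeR (adjusted p = 0.396). Of 10 tested neutrophil markers 9 were higher on day 3 and of 10 Kupffer cell and macrophage markers 9, with summed levels of 26.4 to 34.2 CPM against 1.87 to 2.89 in NC and 650.4 to 799.7 CPM against 173 to 263. The 8 hepatocyte markers summed to between 96289 and 119825 CPM on day 3 and between 119695 and 133066 in NC. The part of these in the differences was not tested.

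**Figure D3:**
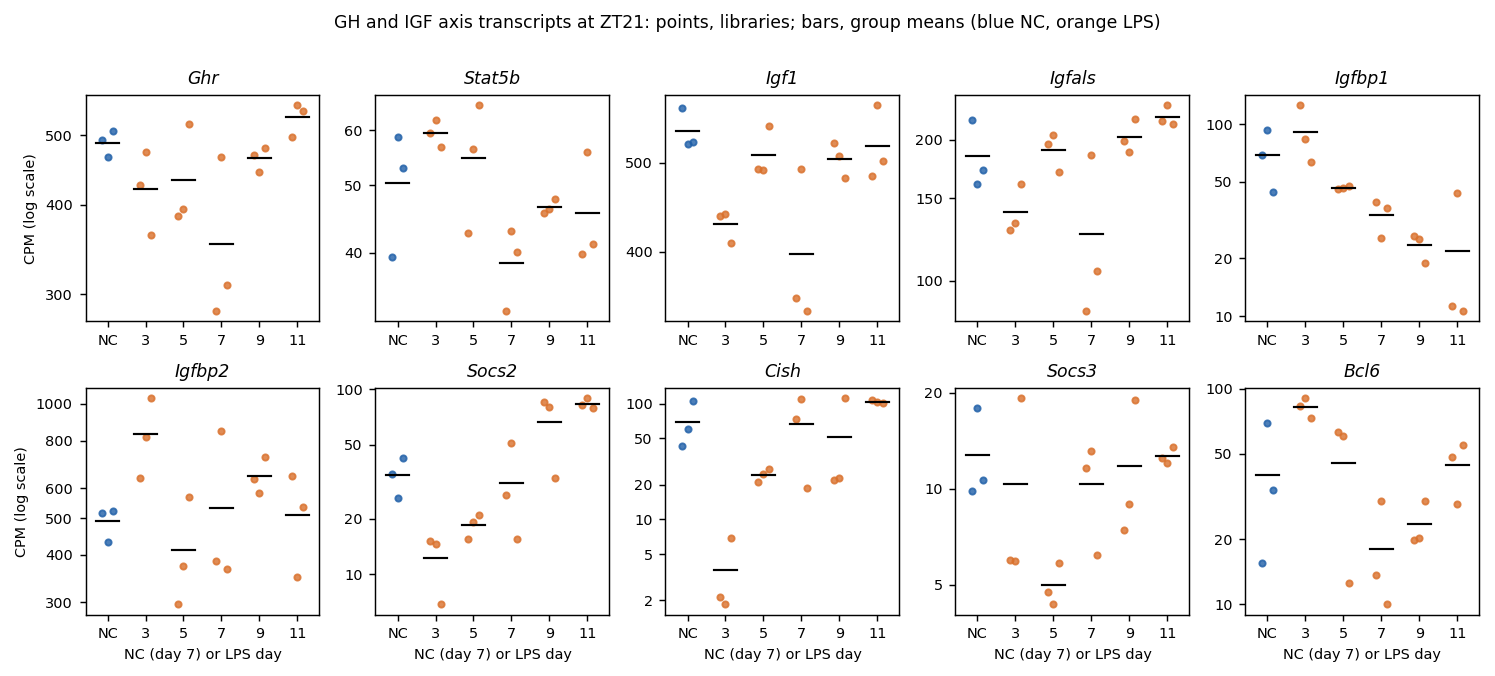
Level of each transcript (CPM, log scale) at ZT21 in NC of day 7 (blue) and in LPS of days 3, 5, 7, 9 and 11 (orange), with points for libraries and bars for means of 3. Cish and Socs2 are lowest on day 3 (means 3.66 and 12.2 CPM) and highest on day 11 (104 and 83.5 CPM), and Igfbp1 means step down from 90.8 CPM on day 3 to 21.8 CPM on day 11.

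By day 5 the same inhibitors were still on the low side, but none of the 10 passed by edgeR, beside 11.6% of all genes. An unadjusted p under 0.05 was reached by 1 of the 10 and by 4442 of all 16101 genes. DESeq2 called 1 of the 10, Socs3. Cish held 20.9, 24.8 and 27.2 CPM, below the 3 NC libraries (-1.52 ± 0.72, adjusted p = 0.194). Socs2 held 15.4, 19.2 and 21.01 CPM, also below them (-0.89 ± 0.42, adjusted p = 0.192). Socs3 (chromosome 11, 117966079 to 117970047) held 4.76, 4.34 and 5.84 CPM against 9.85, 17.9 and 10.6 CPM in NC, without overlap (-1.36 ± 0.47, adjusted p = 0.0771). The other 7 overlapped NC, with differences from -0.55 (Igfbp1) to 0.19 (Bcl6) and adjusted p from 0.480 to 0.916. How many of all genes were without overlap on day 5 was not counted.
On day 7 at ZT21 Igf1 passed against NC, while the test of any difference between LPS days did not pass for it (adjusted p = 0.0624). Igf1 held 356, 492 and 344 CPM against 574, 524 and 527 CPM in NC, without overlap. It fell by 0.45 ± 0.12 (adjusted p = 0.0346; 3 of 3 libraries), where 9.42% of all genes passed. In the fit of the 36 day-7 libraries the same difference was -0.44 ± 0.18 (adjusted p = 0.119).
Ghr held 284, 466 and 309 CPM against 492, 467 and 506 (-0.47 ± 0.16, adjusted p = 0.0752), and Igfals (chromosome 17, 24865997 to 24882010) 86.2, 185 and 105 CPM against 220.01, 161 and 173 (-0.55 ± 0.21, adjusted p = 0.0982). In all 3 transcripts replicate 2 lay near or within NC and replicates 1 and 3, which stood apart, lay below. Without those 2 libraries Igf1 differed by -0.14 (adjusted p = 0.952, in a range of 0.00550 to 0.952 over 8 alternatives). Igf1 passed in 13 of 18 fits without 1 library and was lost without any of the 3 NC libraries, or LPS replicate 1 or 3, with adjusted p up to 0.166. Cish held 72.9, 108 and 18.7 CPM and Socs2 26.9, 50.9 and 15.5 CPM, both overlapping NC. Bcl6, at its lowest mean of the 16 groups, held 18.0 ± 10.7 CPM (SD, n = 3), with replicate 2 at 30.1 CPM, and overlapped NC (-1.14 ± 0.61, adjusted p = 0.258). Igfbp1 held 39.4, 25.4 and 36.5 CPM against 68.9, 92.8 and 44.4 CPM in NC, without overlap (-1.02 ± 0.46, adjusted p = 0.182). Stat5b differed by -0.38 ± 0.16 (adjusted p = 0.153), and Igfbp2 and Socs3 by 0.12 and -0.31, overlapping NC.

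Days 9 and 11 fall after the 7 days of LPS if days are counted from its start. On these days none of the 10 passed by edgeR or DESeq2. Of all genes, edgeR called 0.429% on day 9 and 0.261% on day 11, and DESeq2 called 301 and 164 genes. An unadjusted p under 0.05 was reached by 2 of the 10 on each day, Igfbp1 and Socs2. Of all 16101 genes it was reached by 1652 on day 9 and 1393 on day 11. On day 11 Socs2 held 82.3, 89.3 and 78.9 CPM, above the 3 NC libraries (1.28 ± 0.42, adjusted p = 0.350), and on day 9 85.6, 79.8 and 33.1 CPM (0.94 ± 0.42, adjusted p = 0.456). Cish held 108, 104 and 100.07 CPM on day 11, within the NC range of 43.0 to 106 but for the highest, and 21.7, 22.6 and 111 CPM on day 9. The 3 day-11 libraries were closer to each other in Cish, with an SD of 3.74 CPM, than the NC libraries, with an SD of 32.4 CPM.
Igfbp1, the fasting-responsive binding protein, held 26.3, 25.1 and 18.9 CPM on day 9 and 11.2, 43.6 and 10.6 CPM on day 11 against 68.9, 92.8 and 44.4 CPM in NC. Neither group overlapped NC, and the differences were -1.55 ± 0.47 (adjusted p = 0.223) and -1.66 ± 0.47 (adjusted p = 0.266). Differences of the other 7 ran from -0.76 (Bcl6) to 0.40 (Igfbp2) on day 9 and from -0.14 (Stat5b) to 0.28 (Igfals) on day 11, with adjusted p of 0.734 or more.

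Levels differed between the 5 LPS days for 4 of the 10 transcripts, where 27.4% of all genes passed. Socs2 (adjusted p = 0.00185), Cish (0.00864), Igfbp1 (0.0172) and Igfals (0.0215) passed this test of any difference, which does not use the NC libraries as a reference. Socs2 means were 12.2, 18.5, 31.1, 66.2 and 83.5 CPM on days 3, 5, 7, 9 and 11, and the day-3 and day-11 libraries did not overlap. Igfbp1 means ran the other way, at 90.8, 46.8, 33.8, 23.4 and 21.8 CPM. Igfals means were 141, 190.2, 126, 202 and 224 CPM, with the low value on day 7 coming from replicates 1 and 3; without them its adjusted p was 0.0140.
Socs2 and Cish passed in all 18 fits without 1 library. Igfals was lost without day-7 replicate 3 (adjusted p = 0.0565) and Igfbp1 without day-3 replicate 1 (0.0718). With replicates 1 and 2 of days 3, 5 and 9 averaged, only Socs2 of the 4 passed, at 0.0275; Cish stood at 0.0700, Igfals at 0.106 and Igfbp1 at 0.136. With all 48 libraries in a single fit Igfals (0.0639) and Igfbp1 (0.236) were lost and Stat5b was gained (0.0400; 0.0509 in the 18 libraries) (over 7 alternatives the adjusted p ran from 1.61e-09 to 0.0275 for Socs2, 4.11e-06 to 0.0700 for Cish, 0.00115 to 0.106 for Igfals and 0.000428 to 0.236 for Igfbp1).

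**Figure D4:**
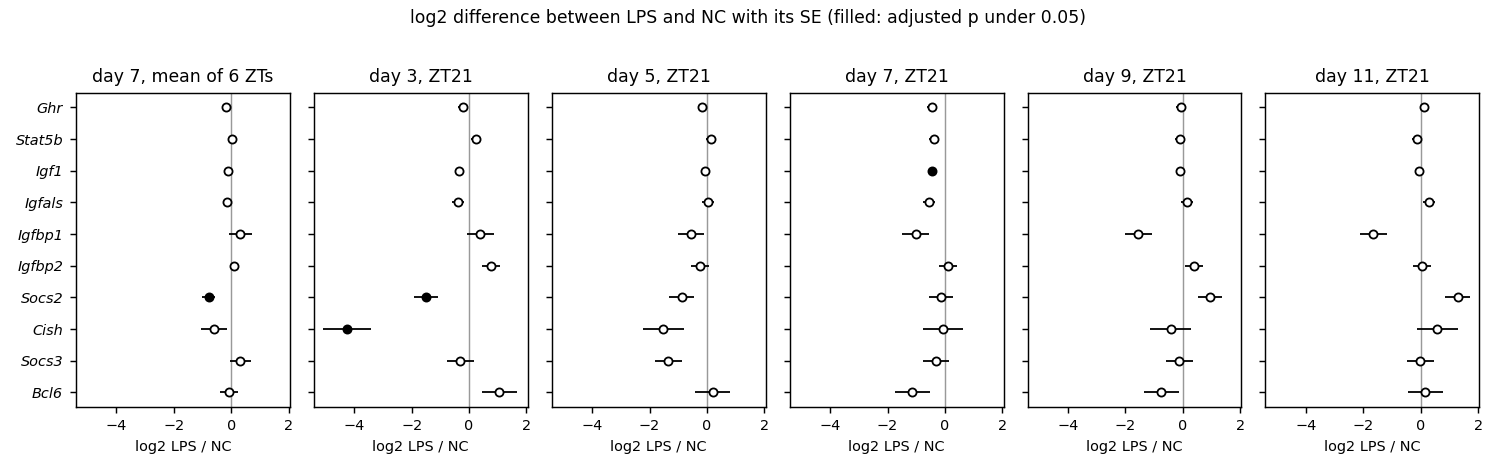
Difference between LPS and NC on the log2 scale with its SE for each transcript, for day 7 averaged over 6 ZTs (n = 18 libraries per arm) and for each day at ZT21 (n = 3 per group); filled points passed at an adjusted p under 0.05. The filled points are Socs2 for the average (-0.79), Socs2 (-1.50) and Cish (-4.25) on day 3 and Igf1 (-0.45) on day 7.

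Cish was then set against the other 9 within each arm of day 7, as deviations from the mean log2 CPM of the group, in 18 relations that were chosen after their values had been seen, so that their p-values, permuted within groups and adjusted over the 18, describe them and support no call. In NC libraries Cish and Socs2 had r = 0.81 (permutation p = 0.0033, adjusted p = 0.0594; rho = 0.81, permutation p = 0.00197, adjusted p = 0.0355; n = 18), and r was 0.75 without the 2 libraries farthest from the median of Cish. In LPS libraries r was 0.57 (permutation p = 0.157, adjusted p = 0.471), rho 0.35 (permutation p = 0.293, adjusted p = 0.586) and r 0.54 without the 2 farthest. Whether the arms differ in this was not tested. Cish and Socs3 had r = 0.67 in NC (permutation p = 0.0469, adjusted p = 0.414; rho = 0.61, permutation p = 0.0525, adjusted p = 0.315; without the 2 farthest 0.46). In LPS they had r = 0.55 (permutation p = 0.115, adjusted p = 0.414; rho = 0.66, permutation p = 0.0285, adjusted p = 0.256; without the 2 farthest 0.34), and r was 0.70 without the 4 libraries that stood apart.
For Cish and Bcl6, r was -0.35 in NC (permutation p = 0.251, rho = -0.34, permutation p = 0.237) and -0.33 in LPS (permutation p = 0.261, rho = -0.19, permutation p = 0.52), at adjusted p of 0.542 or more. Without the 2 farthest libraries r was 0.017 in NC and 0.0037 in LPS, and without the 4 libraries that stood apart it was -0.73 in LPS, so the LPS value depends on which libraries enter. The shape of the relation was not tested. In NC, ZT9 replicate 3 held 4.79 CPM of Cish with 93.0 CPM of Bcl6, ZT21 replicate 1 held 43.0 with 15.5, and ZT17 replicate 1 held 128 with 49.6. In LPS, ZT5 replicate 3 held 2.65 CPM of Cish with 97.4 CPM of Bcl6, ZT13 replicate 1 held 111 with 54.4, and ZT13 replicate 2, which stood apart, held 22.2 with 9.09. These libraries were picked after their values had been seen. In NC, r of Cish was more negative with Igfbp1 and Stat5b than with Bcl6. It was -0.51 with Igfbp1 (permutation p = 0.0978) and -0.43 with Stat5b (permutation p = 0.105), both at adjusted p = 0.414. In LPS, r of Cish was -0.11 with Igfbp1 and -0.048 with Stat5b.

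**Figure D5:**
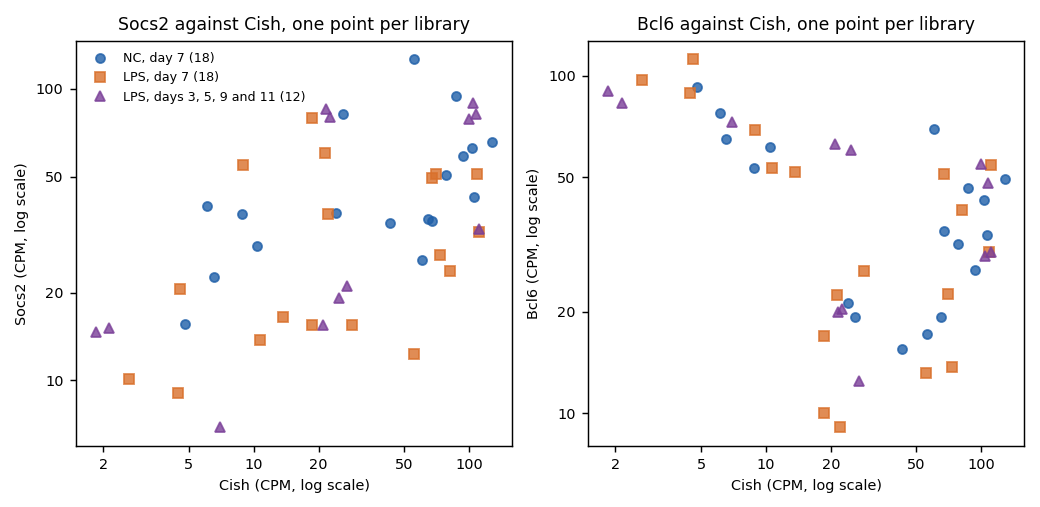
Socs2 (left) and Bcl6 (right) against Cish, in CPM on log scales, with a point for each of 48 libraries: NC of day 7 (blue circles, 18), LPS of day 7 (orange squares, 18) and LPS of days 3, 5, 9 and 11 (purple triangles, 12). The 3 day-3 libraries lie at low Cish (1.85 to 6.98 CPM), low Socs2 (6.90 to 15.1 CPM) and high Bcl6 (73.2 to 90.4 CPM).

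Over the 16 group means, the highest and lowest means were 104 CPM (LPS day 11) and 3.66 CPM (LPS day 3) for Cish, 83.5 and 12.2 CPM for Socs2 in the same groups, 82.2 CPM (LPS day 3) and 18.0 CPM (LPS day 7, ZT21) for Bcl6, 79.6 CPM (LPS day 7, ZT1) and 4.98 CPM (LPS day 5) for Socs3, and 295 CPM (LPS day 7, ZT1) and 21.8 CPM (LPS day 11) for Igfbp1. They were 529 and 338 CPM for Ghr, 84.0 and 36.7 CPM for Stat5b, 542 and 385 CPM for Igf1, 224 and 100.05 CPM for Igfals and 831 and 363 CPM for Igfbp2. Of the 15 neighbouring pairs in each transcript's order, libraries of every pair overlapped, except for 1 pair in Socs3. This was not counted for all genes, and neighbours in such an order are close by construction.
The gene most like a transcript over the 16 means, among 10657 genes, is given as a description; the means share libraries and times of day. Igf1 and Igfals were each other's nearest (r = 0.93). Cish was nearest to Foxa1, a pioneer factor of liver (0.94), and Socs2 to Grb10, an adaptor that inhibits the insulin and IGF1 receptors (0.88). Stat5b and Igfbp1 were both nearest to Pla2g12b, a gene needed for lipoprotein secretion (0.95 and 0.89), and r between Stat5b and Igfbp1 was 0.87. Ghr was nearest to Mup12 and Mup1, major urinary protein genes (0.91 each), whose near-identical copies may share reads. Bcl6 was nearest to F11, coagulation factor XI (0.87), and Igfbp2 to Hsd17b6, a steroid dehydrogenase (0.79).

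Other genes of the pathway are given by lists named with earlier results of these data known, to be read beside the 9.34% of all genes called for the day-7 average and the 20.5% called on day 3. Without the 4 libraries that stood apart fewer of all genes were called as well, so smaller counts there are not specific to these lists. Of 30 other genes of GH receptor signalling, 2 passed for the average: Cux2, a repressor higher in female liver, rose by 1.69 ± 0.49 (adjusted p = 0.0327) and Nr3c1, the glucocorticoid receptor, fell by 0.25 ± 0.06 (0.00846). Without the 4 libraries that stood apart none of the 30 passed. On day 3, 3 were higher and 5 lower, among them Sirpa, a phosphatase-binding receptor that is also abundant on macrophages (2.48 ± 0.18, adjusted p = 4.86e-07), and the transcription factor Cebpb (-1.65 ± 0.20, 4.47e-05).
Of 12 tested IGF and insulin receptors, binding proteins and proteases, 2 passed for the average, both higher: Igfbp3 (0.50 ± 0.15, adjusted p = 0.0323), which carries most circulating IGF1, and Igfbp7 (0.22 ± 0.07, 0.0429). In the same average 4 of 8 liver endothelial markers, 7 of 10 neutrophil markers and 3 of 8 markers of T, NK and B cells were higher and none lower, and their part in these differences was not tested. Summed endothelial markers ran from 124 through 162 to 215 CPM in NC and from 148 through 191 to 297 CPM in LPS. Without the 4 libraries that stood apart, 1 of the 12 passed, and 1 endothelial, 6 neutrophil and 3 T, NK and B cell markers. On day 3 Igfbp3 and Igfbp7 were higher and Igfbp4 lower (-0.50 ± 0.13, 0.0103), of 11 tested.
Of 15 tested genes that GH keeps higher in female liver, 5 were higher in LPS for the average and none lower, with a median of 0.91, and Cyp2b9 rose by 3.65 ± 0.57 (adjusted p = 0.000642). Without the 4 libraries that stood apart 1 passed, at a median of 0.19. Medians were 1.16, 2.88 and 3.06 at ZT1, ZT13 and ZT21, the times of those 4 libraries, and 0.43, -0.049 and 0 at ZT5, ZT9 and ZT17. On day 3, 1 of 13 was higher, at a median of -0.072.
Of 16 genes that GH pulses keep higher in male liver, 0 passed for the average by edgeR. An unadjusted p under 0.05 was reached by 5 of them and by 4389 of all 16544 genes. DESeq2 called 1, lower. The median was -0.48, and -0.14 without those 4 libraries. On day 3, 2 were lower, Ugt2b38 (-1.35 ± 0.40, 0.0298) and Gstp1 (-1.43 ± 0.43, 0.0298).
Among 17 genes of the insulin, FOXO and fasting response, 4 were higher for the average, among them the lipogenic regulator Srebf1 (0.42 ± 0.11, adjusted p = 0.0154) and the coactivator Ppargc1a (0.55 ± 0.17, 0.0362); without the 4 libraries 1 passed. On day 3, 6 were lower and none higher, among them Angptl4, a lipase inhibitor raised by fasting (-3.99 ± 0.48, 0.000111), and Tat, a tyrosine aminotransferase (-1.55 ± 0.28, 0.00123). Of 18 genes of the interleukin-6 and STAT3 response, 2 were higher for the average, Lcn2 (2.78 ± 0.64, 0.0103) and Il1rn (1.56 ± 0.49, 0.0442), but none by DESeq2 or without the 4 libraries, and on day 3 7 were higher and 2 lower.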

How the data were processed

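Liver poly(A) RNA was measured in 48 libraries of 16 groups. The authors deposited whole-number read counts per gene symbol, with no normalization. Per the labels' protocols, libraries were strand-specific and read as pairs; per the submitters' processing notes, the build was GRCm38 and the tools, with roles unnamed, were DESeq2 1.38.1, StringTie 2.2.1, STAR 2.5.2b, FastQC 0.11.5 and SAMtools 1.3.1. How reads were counted, with which strand setting and annotation, is not given in the sources used. Counts were tested with edgeR 4.0.16 (R 4.3.3; TMM, filterByExpr, robust quasi-likelihood test, Benjamini-Hochberg adjustment over all genes, threshold 0.05) in a fit of the 36 day-7 libraries (16544 genes), a 24 h cosine fit of the same libraries, and a fit of the 18 ZT21 libraries (16101 genes). CPM were TMM-scaled over 48 libraries, with a prior count of 0.5 for log2 values. The tests were tested on simulated data. Alternatives used RLE scaling, no filter, a replicate block, fewer or more libraries, other controls, limma 3.58.1 and DESeq2 1.42.0. All 10 transcripts were eligible in each comparison, those outside the main values being given by ranges; of the other lists, at most 4 called genes per comparison, by smallest p, were eligible. Nearest genes were the 2 with the highest r over group means, among genes with a mean log2 CPM of at least 1. The 10 transcripts and the lists were chosen with earlier results of these data known. Some genes that these rules would name are not reported here.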

Additional observations from a re-analysis of the deposited data

Results flagged for a closer look

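The test of any difference between the 5 LPS days at ZT21 gave an adjusted p of 0.0215 for Igfals, 0.0172 for Igfbp1, 0.00185 for Socs2 and 0.00864 for Cish by edgeR's quasi-likelihood test. The test compares LPS levels between days; NC livers are of day 7 only, so an effect of LPS and of the day cannot be told apart. Socs2 and Cish were lowest on day 3 and highest on day 11, Igfbp1 was highest on day 3, and Igfals was lowest on day 7.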

How the results depend on the processing

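No difference that passed in the main fit or in an alternative changed its direction there. For differences that passed in neither, signs were not compared. Of the 10 transcripts, the number that passed for the day-7 average went from 1 to 0 without a filter on low counts and to 0 without the 4 libraries that stood apart. For the rhythm in NC it went from 1 to 3 without those 4 and to 2 by DESeq2, and in LPS from 2 to 1 without those 4 and to 4 by a test of any difference between ZTs. All genes called for a rhythm went from 3719 to 5301 and 4199 in NC, and from 2646 to 2355 and 4188 in LPS. For the average, all genes called went from 1545 to 1020 without the filter and to 521 without the 4 libraries. At ZT1 DESeq2 called 1 of the 10, and 310 of all genes against 59 by edgeR. On day 3 the count of 2 became 4 with only the 6 libraries compared or by DESeq2, and 1 with all 48 libraries in a single fit, with NC of ZT5 as control or with replicates 1 and 2 averaged, an alternative chosen after seeing the data. All genes called on day 3 went from 3303 to 3594 and 3819, and to 3258, 1233 and 1880, in that order. On day 5 the count of 0 became 3 with 6 libraries and 1 by DESeq2, while all genes called went from 1865 to 1493 and 2537. On day 7 at ZT21 the count of 1 became 0 with 6 libraries, with 48 libraries or with averaged replicates, and 2 by DESeq2. All genes called there went from 1516 to 0, 1732, 864 and 2291, in that order. Without the libraries that stood apart, which left 1 LPS library, Igf1 differed by -0.14. On day 11 the count of 0 became 1 with 6 libraries, while all genes called went from 42 to 45. For any difference between LPS days the count of 4 became 9 by DESeq2, 1 with averaged replicates, 5 with RLE scaling (Stat5b gained) and 3 with 48 libraries (Igfals and Igfbp1 lost, Stat5b gained). All genes called by this test went from 4410 to 6043, 1437, 4421 and 5114, in that order. The cause of these changes was not tested. Leaving out 1 library at a time gave 0 to 1 for the average, for ZT1, for ZT21 and for days 5, 9 and 11, 1 to 3 for the rhythm in NC, 2 to 4 in LPS, 1 to 5 on day 3, 0 to 3 on day 7 and 3 to 9 for any difference between days. All genes called in these fits are not given here, so these ranges are not shown to be particular to the 10. Replicate numbers did not pair the samples: 0 of 18 same-number pairs had r over 0.1 (-0.0587 to 0.0736), and 9 of 18 libraries correlated best with their own number. With a replicate block the count for any difference between days was 5, while all genes called went from 4410 to 4548. The other counts of the 10 stayed the same, and all genes called at ZT1 went from 59 to 0. RLE scaling moved log2 levels by between -0.0133 and 0.0131. DESeq2 gave Socs3 no adjusted p in the 3 rhythm tests, which are left out of these counts. With 3 libraries per group, the spread within groups limits what single ZTs and days can show.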
